A study of Mus musculus with 5 samples.

Results

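The 10 genes described here are the muscle atrophy ligases Fbxo32, Trim63, Fbxo30 and Fbxo21, the transcription factors Foxo1 and Foxo3, and the FoxO-linked genes Klf15, Cdkn1a, Ddit4 and Eif4ebp1. They were taken by gene name from a table of 17015 genes, with earlier results of these data known. All 10 were among the 12148 genes with enough signal to be tested. RNA-seq was performed on tibialis anterior (TA), a fast-twitch muscle of the lower leg, from 8-week-old male mice. There were 3 WT control libraries and 2 libraries labelled skmNrip1-/-. The mice carried Nrip1 fl/fl alleles (C57BL/6J, crossed to a C57BL/6JN Cre line), in which loxP sites flank exon 4, the exon that holds the whole coding sequence of the nuclear receptor coregulator RIP140. In skmNrip1-/- mice, Cre recombinase under the myogenin promoter deletes that exon in skeletal muscle, and the WT controls were Cre-negative littermates of the same line. Cells of a whole muscle that do not express myogenin, such as endothelium, fibroblasts and nerve, should keep the gene. All mice were sedentary.

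Muscle wasting runs largely through the ubiquitin-proteasome system. E3 ligases attach ubiquitin chains to muscle proteins, and the proteasome degrades the tagged proteins. Fbxo32 (atrogin-1) and Trim63 (MuRF1) are the best known of these ligases, and both are induced in fasting, denervation, disuse and glucocorticoid excess. FoxO transcription factors activate their genes. Insulin and IGF signals through the kinase Akt keep FoxO proteins out of the nucleus, and FoxO activity is therefore high when growth signals are low. Several other genes in the group report on the same balance between growth and breakdown: Ddit4 and Eif4ebp1 restrain protein synthesis around the kinase complex mTORC1, Cdkn1a arrests the cell cycle, and Klf15 is a glucocorticoid-induced factor that turns on amino acid catabolism.

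Values are FPKM (fragments per kilobase of transcript, scaled between libraries) as deposited by the authors, and levels can be compared between genes on this per-length scale. In genes with 1 annotated transcript, low FPKM values fell on regular steps, 1 step for each fragment. From these steps, the fragments behind a given FPKM in WT control replicates 2 and 3 were 1.102 and 1.004 times those in WT control replicate 1. In the libraries labelled skmNrip1-/- they were 0.809 and 0.963 times. These factors describe the scaling of the values and need not equal library depth. The FPKM sums differed, from 969144 (WT control replicate 3) to 1288038 (replicate 1 labelled skmNrip1-/-). By the same steps and the length of the longest transcript, the 10 genes rested on about 266 fragments (Cdkn1a, lowest library) to 11162 fragments (Trim63, highest library). At 266 fragments the counting error alone is about 6.14% of the value. Throughout, single values are given in the order of the replicate numbers, SE is the standard error, and "under the knockout label" means in the libraries labelled skmNrip1-/-. Nrip1 was 4.64, 7.69 and 6.55 FPKM in WT control TA but 25.3 and 22.5 FPKM under the knockout label. The targeted gene was thus higher under the knockout label, with a log2 fold change of 1.94 (SE 0.21, limma adjusted p = 0.0261), and gene totals cannot show exon 4 on its own. Its call was lost without WT control replicate 3 or without either library labelled skmNrip1-/- (limma adjusted p = 0.114 to 0.189), while it was higher in both of these libraries than in every WT control library. Every direction given here rests on those labels. All 7 markers of skeletal muscle fibres were detected in each library. Their summed FPKM was 63836 to 85707 in WT control TA against 58949 to 61438 under the knockout label, with no overlap. Taken singly, only Acta1 and Ckm lay lower under the knockout label without overlap. The values of Myh4, Pvalb, Tnnt3, Myh2 and Myh1 overlapped between the groups. Markers of fat, endothelium, macrophages, fibroblasts and nerve were detected, and their sums overlapped between the groups. Over the 5 libraries the sum ran from 161 to 256 FPKM for fibroblasts and from 68.7 to 83.3 FPKM for endothelium. The summed satellite cell markers overlapped as well. Cdh15 lay lower under the knockout label, at 6.13, 4.71 and 5.89 FPKM in WT control TA against 3.77 and 3.68 FPKM. Myf5 lay narrowly lower, at 0.606, 0.740 and 0.537 FPKM against 0.506 and 0.531 FPKM. Pax7, below the minimum for testing, was 0.383, 0.386 and 0.384 FPKM against 0.237 and 0.314 FPKM. Chodl overlapped between the groups, with 2.86 and 6.13 FPKM under the knockout label on either side of the WT control range. The summed red blood cell markers did not overlap, at 511 to 764 FPKM in WT control TA and 827 to 996 FPKM under the knockout label. The part of the muscle fibre, satellite cell and red blood cell markers in the differences below was not tested. Of 6 slow-fibre markers, Myl2 and Myl3 had log2 fold changes of 3.46 and -1.24, and neither passed the adjusted test. In a bulk sample, fewer cells of a type and less RNA per cell cannot be told apart.

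None of the 10 genes was called between the groups. A call required an adjusted p of 0.05 or less from limma and a fold change of at least 1.2, and 0.37% of all tested genes were called higher and 0.0823% lower. At an unadjusted p of 0.05 or less, 3 of the 10 genes were lower (Cdkn1a, Ddit4 and Trim63), where the share of all tested genes was 5.33%. No member was higher at that level, where the share of all genes was 6.57%. In 4 of the 10 genes (Trim63, Cdkn1a, Ddit4 and Klf15) both libraries labelled skmNrip1-/- lay below every WT control library, and 14.4% of all tested genes showed this pattern. In 2 genes (Fbxo32 and Fbxo21) both lay above every WT control library, a pattern of 15.8% of all tested genes. The median log2 fold change of the 10 genes was -0.08, against -0.00 for all tested genes. With groups this small the labels can be arranged in 10 ways, so the exact two-sided permutation p of any single value is at least 0.2. The labels do not state that each library came from its own mouse, and p-values measure the spread between these libraries.

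**Figure D1:**
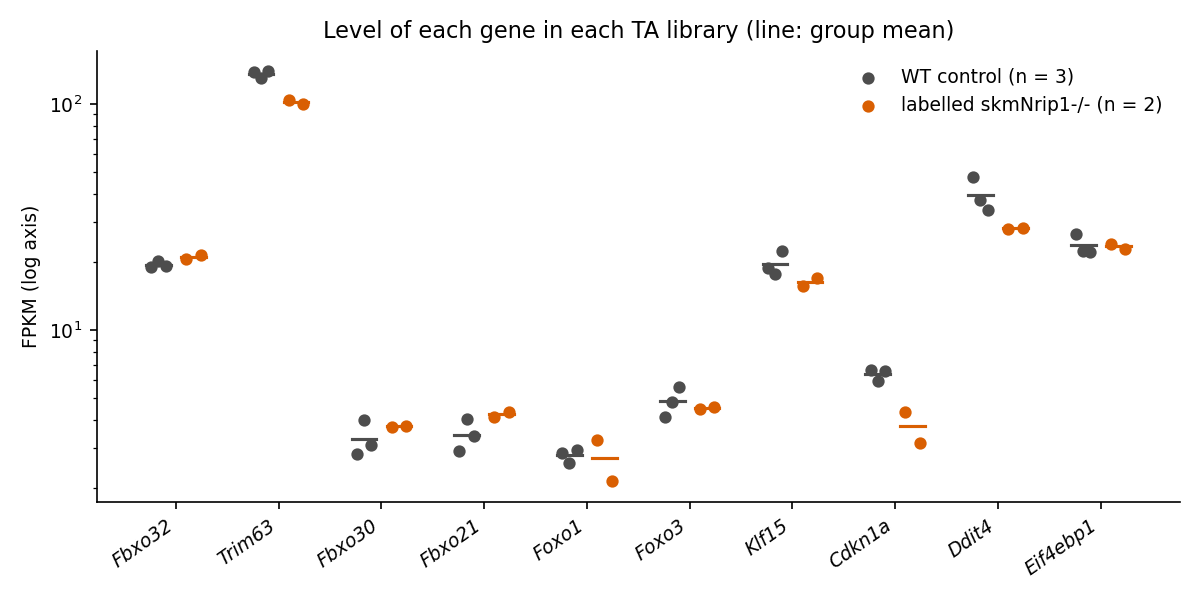
FPKM of the 10 genes (log axis) in each of the 3 WT control libraries (grey) and the 2 libraries labelled skmNrip1-/- (orange), with a line at each group mean. Trim63 is the most abundant at 99.6 to 139 FPKM, and the orange points lie below all grey points for Trim63, Cdkn1a, Ddit4 and Klf15 and above them for Fbxo32 and Fbxo21 on this scale (with libraries rescaled to TPM, Fbxo32 has a log2 fold change of -0.18).

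The most abundant of the 10 genes was Trim63 (ENSMUSG00000028834, chromosome 4, 134315120 to 134329629 on GRCm38), a RING-finger ligase that sits at the sarcomere and marks thick-filament proteins for degradation. Its FPKM was 138, 129.7 and 139 in WT control TA. It was 103 and 99.6 FPKM under the knockout label. The groups did not overlap, and the 2 lower values lay within 4 FPKM of each other. The log2 fold change was -0.42 (SE 0.10, 95% interval -0.65 to -0.18, limma adjusted p = 0.191), or 0.749 times the WT control level, and did not pass the test. Trim63 ranked 272 of the 12148 genes by p.

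The promoter of Trim63 is shown because it is the only one of the 9 promoter windows found for 8 of the 10 genes that held letters of a FoxO site or of a glucocorticoid receptor site. Each RefSeq window runs from 250 bases before to 50 bases after the annotated start, and only exact matches of the letters below were counted. Searched on both strands were the FoxO core GTAAACA, the insulin response letters CAAAACA, the glucocorticoid receptor core ACANNNTGT, the full glucocorticoid response element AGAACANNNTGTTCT, which contains that core, TATAAA, and the p53 response element with its half-sites side by side. In the Trim63 window, on GRCm38 at chr4:134314870-134315169, plus strand, the matches stand in capitals and are, from left to right, the glucocorticoid receptor core, the FoxO core read on the other strand, and TATAAA.

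Trim63 promoter: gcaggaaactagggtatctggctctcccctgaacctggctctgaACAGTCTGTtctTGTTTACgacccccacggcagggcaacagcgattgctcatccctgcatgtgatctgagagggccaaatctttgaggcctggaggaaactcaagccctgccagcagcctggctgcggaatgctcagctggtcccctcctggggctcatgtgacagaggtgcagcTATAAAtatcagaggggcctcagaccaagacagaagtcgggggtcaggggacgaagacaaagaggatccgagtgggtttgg

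In this window the glucocorticoid receptor core begins at position -206, the FoxO core at -194 and TATAAA at -31 from the start. Of all 32851 promoter windows, 3.65% held the FoxO core, 6.85% the glucocorticoid receptor core and 13.6% TATAAA. Exact matches of the insulin response letters, the full glucocorticoid response element and the p53 element were in 6.28%, 0.00913% and 0.00913% of all windows and in none of the members' windows. Near matches were not counted. The Trim63 window held tgaACAGTCTGTtct, which differs from the full glucocorticoid response element only at its first base. An upstream Cdkn1a window held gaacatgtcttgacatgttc, which departs from the p53 letters only where its later half-site begins. The Trim63 window also held less GC than those of the other genes found apart from an upstream Cdkn1a window, 57% against 61.3% to 79.7%, and the median of all windows was 52.7%. No window was found for Fbxo32 and Eif4ebp1. A match of letters is a description of the window and not evidence of binding.

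Fbxo32 (ENSMUSG00000022358, chromosome 15, 58175879 to 58214932) encodes the F-box ligase that is usually read together with Trim63 as the pair of atrophy markers. Its FPKM was 19.0, 20.1 and 19.2 in WT control TA. It was 20.6 and 21.5 FPKM under the knockout label. Both of the latter lay just above the WT control range, and Fbxo32 also had the smallest spread of the 10 genes in WT control TA, with a coefficient of variation of 3.24% against a median of 12.7% over all tested genes. The log2 fold change was 0.12 (SE 0.10, limma adjusted p = 0.722). The 95% interval ran from -0.12 to 0.35, from 0.92 to 1.27 times the WT control level.

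The ratio of Trim63 to Fbxo32 within a library does not depend on how the libraries are scaled to each other. It was 7.28, 6.44 and 7.26 in WT control TA, and 5.02 and 4.63 under the knockout label. The mean ratio in WT control TA was 6.99 ± 0.481 (SD, n = 3), that under the knockout label was 4.83 ± 0.278 (SD, n = 2), and the groups did not overlap (exact two-sided permutation p = 0.2, the smallest these group sizes can give). Against Acta1, the skeletal actin of the thin filament, Trim63 did not stand apart. The ratio of Trim63 to Acta1 was 0.00630, 0.00791 and 0.00712 in WT control TA, and 0.00700 and 0.00693 in the libraries labelled skmNrip1-/-. Acta1 itself had a log2 fold change of -0.40 (limma adjusted p = 0.517). The ratio of Trim63 to Ckm, the muscle creatine kinase, also overlapped between the groups, with means of 0.0102 ± 0.00181 (SD, n = 3) and 0.00920 ± 0.000539 (SD, n = 2). Acta1 and Ckm were themselves the only 2 of the 7 skeletal muscle fibre markers that lay lower under the knockout label without overlap. Ratios of Trim63 to the other fibre markers were not computed.

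**Figure D2:**
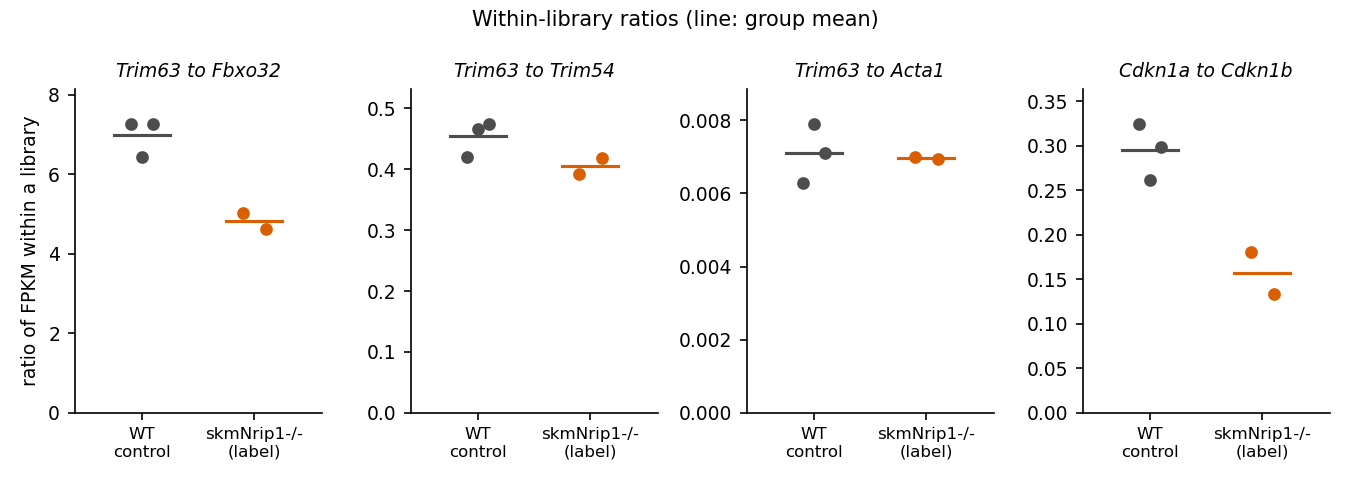
Ratios of FPKM within each library (vertical axes, from 0) for Trim63 to Fbxo32, Trim63 to Trim54, Trim63 to Acta1 and Cdkn1a to Cdkn1b, with WT control in grey, the libraries labelled skmNrip1-/- in orange and lines at group means. The ratio to Fbxo32 is lower under the knockout label (4.63 and 5.02 against 6.44 to 7.28), while the ratio to Acta1 overlaps between the groups.

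Trim63 belongs to a family of 3 muscle RING-finger proteins. Trim54 (MuRF3), which binds microtubules, was 329, 278 and 293 FPKM in WT control TA, and 263 and 238 FPKM in the libraries labelled skmNrip1-/-. Its groups did not overlap either, with a log2 fold change of -0.26 (SE 0.12, limma adjusted p = 0.478). Trim55 (MuRF2) was 21.2, 26.9 and 21.0 FPKM in WT control TA and 24.9 and 23.8 FPKM under the knockout label, where both values lay inside the WT control range. Its log2 fold change was 0.09 (95% interval -0.25 to 0.42, limma adjusted p = 0.867). Trim54 was thus the most abundant of the family in each library and Trim55 the least.

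The other F-box ligases of the group were present at lower levels. Fbxo30 (MUSA1, ENSMUSG00000047648, chromosome 10, 11281330 to 11298052), which is held down by BMP signaling in muscle, was 2.83, 3.99 and 3.12 FPKM in WT control TA. Under the knockout label it was 3.75 and 3.77 FPKM, inside the WT control range (log2 fold change 0.19, 95% interval -0.22 to 0.60, limma adjusted p = 0.737). Fbxo21 (SMART, ENSMUSG00000032898, chromosome 5, 117976730 to 118010201), identified as a FoxO-dependent ligase, was 2.91, 4.04 and 3.41 FPKM in WT control TA. It was 4.13 and 4.36 FPKM in the libraries labelled skmNrip1-/-. Both values lay above the WT control range, the lower of them by less than 0.1 FPKM, and the log2 fold change was 0.30 (95% interval -0.09 to 0.70, limma adjusted p = 0.547). WT control replicate 1 was the lowest library for Fbxo32, Fbxo30 and Fbxo21 alike.

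Among relatives outside the group, Fbxo40, a muscle F-box protein that targets the insulin receptor substrate IRS1, was 71.3, 84.1 and 82.8 FPKM in WT control TA and 89.7 and 90.1 FPKM under the knockout label. Its log2 fold change was 0.18 (limma adjusted p = 0.599). Fbxo25, the closest relative of Fbxo32, was 6.997, 6.07 and 5.79 FPKM in WT control TA and 6.89 and 6.47 FPKM in the libraries labelled skmNrip1-/-, values that overlapped. In levels, Fbxo40 exceeded every F-box member of the group in each library.

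Foxo1 and Foxo3, the transcription factors upstream of the ligases, were expressed at low levels with groups that overlapped. Foxo1 (ENSMUSG00000044167, chromosome 3, 52268336 to 52353221) was 2.87, 2.59 and 2.96 FPKM in WT control TA. In replicates 1 and 2 labelled skmNrip1-/- it was 3.28 and 2.15 FPKM, the highest and the lowest of all 5 libraries. Its log2 fold change of -0.07 (SE 0.20, 95% interval -0.55 to 0.40, limma adjusted p = 0.923) therefore averaged values on either side of WT control TA, and it was 0.22 without replicate 2 labelled skmNrip1-/-. Foxo3 (ENSMUSG00000048756, chromosome 10, 42181841 to 42276755) was 4.12, 4.82 and 5.58 FPKM in WT control TA and 4.48 and 4.57 FPKM under the knockout label, inside the WT control range. Its log2 fold change was -0.08 (95% interval -0.45 to 0.29, limma adjusted p = 0.887). FoxO activity is set largely by phosphorylation and localization, which mRNA levels do not measure.

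Foxo4 was the most abundant FoxO gene in this muscle, at 63.9, 68.0 and 67.1 FPKM in WT control TA, and at 56.8 and 61.5 FPKM under the knockout label. The ratio of Foxo4 to Foxo3 ranged from 12.03 to 15.5 over the 5 libraries, and the groups overlapped. The log2 fold change of Foxo4 was -0.17 (95% interval -0.40 to 0.07, limma adjusted p = 0.585). Foxo6 was 3.53, 3.44 and 3.31 FPKM in WT control TA and 4.33 and 4.46 FPKM in the libraries labelled skmNrip1-/-. These groups did not overlap, and the log2 fold change was 0.35 (SE 0.12, limma adjusted p = 0.325).

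Klf15 (ENSMUSG00000030087, chromosome 6, 90462576 to 90475238) was 18.8, 17.6 and 22.3 FPKM in WT control TA, and 15.6 and 16.999 FPKM under the knockout label. The groups were separated by less than 1 FPKM. The log2 fold change was -0.26 (SE 0.13, 95% interval -0.57 to 0.06, limma adjusted p = 0.523). Bcat2 and Prodh, amino acid catabolic enzymes that Klf15 activates, did not pass the test, with log2 fold changes of 0.23 (limma adjusted p = 0.467) and -0.36 (limma adjusted p = 0.479).

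The largest difference among the 10 genes was in Cdkn1a (ENSMUSG00000023067, chromosome 17, 29090976 to 29100727), which encodes the cyclin-dependent kinase inhibitor p21, a target of p53 and of FoxO factors. Its FPKM was 6.64, 5.97 and 6.58 in WT control TA. It was 4.36 and 3.16 FPKM under the knockout label. Both lay below every WT control library, and they differed from each other by more than the WT control libraries did. The log2 fold change was -0.77 (SE 0.16, 95% interval -1.16 to -0.38, limma adjusted p = 0.154), or 0.587 times the WT control level, and did not pass the test. The ratio of Cdkn1a to Cdkn1b, which encodes the related inhibitor p27, was 0.325, 0.261 and 0.298 in WT control TA and 0.180 and 0.133 under the knockout label, and the groups did not overlap (exact two-sided permutation p = 0.2).

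Ddit4 (REDD1, ENSMUSG00000020108, chromosome 10, 59949669 to 59951834) is induced by glucocorticoids, hypoxia and energy stress and inhibits mTORC1. It was 47.3, 37.6 and 33.8 FPKM in WT control TA, and 28.0 and 28.3 FPKM in the libraries labelled skmNrip1-/-. The groups did not overlap, and WT control replicate 1 was the highest library. The log2 fold change was -0.48 (SE 0.15, 95% interval -0.85 to -0.11, limma adjusted p = 0.308). Ddit4l (REDD2), its muscle-enriched relative, was 67.9, 46.4 and 36.8 FPKM in WT control TA and 55.5 and 54.5 FPKM under the knockout label. The order of the 3 WT control libraries was the same for Ddit4 and Ddit4l, but the values of Ddit4l overlapped between the groups (log2 fold change 0.17, limma adjusted p = 0.843).

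Eif4ebp1 (ENSMUSG00000031490, chromosome 8, 27260329 to 27276674) encodes the repressor that holds the cap-binding protein eIF4E until mTORC1 phosphorylates it. It was 26.5, 22.4 and 22.03 FPKM in WT control TA, and 24.01 and 22.9 FPKM under the knockout label. The values overlapped, and its log2 fold change was the nearest to 0 of the 10 genes, -0.01 (SE 0.12, 95% interval -0.30 to 0.28, limma adjusted p = 0.989). Eif4ebp2, which encodes a second such repressor, was 44.9, 48.1 and 45.0 FPKM in WT control TA and 39.8 and 44.5 FPKM in the libraries labelled skmNrip1-/- (log2 fold change -0.13, limma adjusted p = 0.705), with no overlap. For both repressors the intervals include no change and also shifts of 0.28 upward (Eif4ebp1) and 0.38 downward (Eif4ebp2) on the log2 scale.

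**Figure D3:**
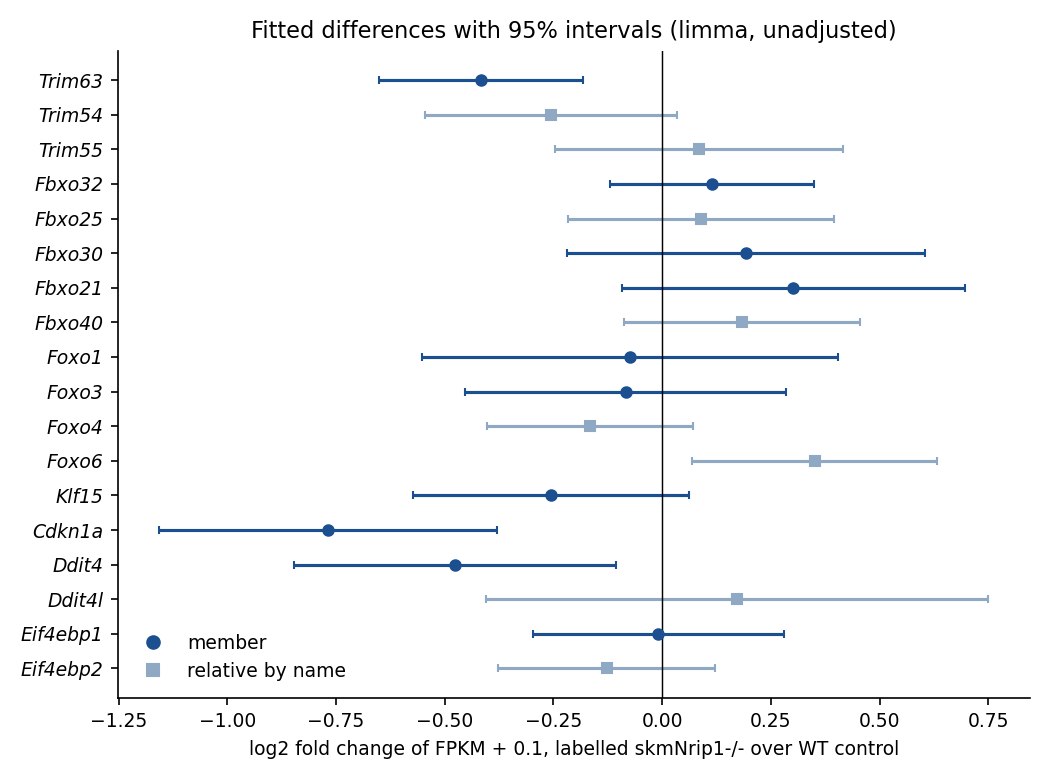
Log2 fold change on the FPKM + 0.1 scale (horizontal axis) of the 10 genes (dark circles) and of 8 relatives (light squares) in the libraries labelled skmNrip1-/- over WT control TA, with unadjusted 95% intervals from limma. The intervals of Cdkn1a, Ddit4 and Trim63 lie below 0, that of Foxo6 lies above 0, and none of these genes passed the adjusted test.

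Ordered by mean level in WT control TA, the genes ran from Trim63 (136 FPKM) through Ddit4 (39.6), Eif4ebp1 (23.7), Klf15 (19.6), Fbxo32 (19.4), Cdkn1a (6.40), Foxo3 (4.84), Fbxo21 (3.46) and Fbxo30 (3.31) to Foxo1 (2.81). Neighbours whose libraries overlapped were Eif4ebp1 with Klf15, Klf15 with Fbxo32, Fbxo21 with Fbxo30, and Fbxo30 with Foxo1. Under the knockout label the order was the same at the top, Fbxo32 (21.0 FPKM) stood above Klf15 (16.3 FPKM) with no overlap, and Cdkn1a (3.76 FPKM) came next to last, overlapping with Fbxo30 and Foxo1. In WT control TA the coefficient of variation was 3.24% for Fbxo32, 3.83% for Trim63 and 5.80% for Cdkn1a, and it reached 18.3% for Fbxo30 and 17.6% for Ddit4.

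The genes whose 5 values most resembled those of Trim63, by the root mean square difference of their log2 values after centring, were Akirin2 (0.0191), Fam241a (0.0262) and 2310011J03Rik (0.0272). Akirin2 was 13.9, 12.9 and 13.9 FPKM in WT control TA and 10.6 and 10.2 FPKM in the libraries labelled skmNrip1-/-. The genes closest to Fbxo32 were Rnf122 (0.00847), Slc30a4 (0.00963) and Kif3b (0.0138), and none of these 6 genes was called. A likeness over 5 libraries is a description only.

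Beyond the members, 17 other ligases linked to muscle mass and 16 genes of ubiquitin conjugation, its cullin scaffold and deubiquitination were tested. None was called. Among the ligases the median log2 fold change was 0.01, from -0.65 for Fbxl22 to 0.52 for Wwp1. Wwp1 was the only 1 of the 17 at an unadjusted p of 0.05 or less, at 40.9, 54.1 and 41.7 FPKM in WT control TA and 64.9 and 64.5 FPKM under the knockout label (limma adjusted p = 0.256). In the conjugation list the median was -0.01, and Ubb, which encodes ubiquitin itself, had the most negative log2 fold change, -0.31 (limma adjusted p = 0.507). Ubb was 695, 512 and 569.7 FPKM in WT control TA, and 497 and 452 FPKM under the knockout label, and the groups did not overlap.

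Of 11 genes of the FoxO family and its regulators, none was called, 2 were higher at an unadjusted p of 0.05 or less (Mstn and Foxo6) and the median log2 fold change was 0.00. Mstn, which encodes myostatin, the secreted inhibitor of muscle growth, was 13.9, 13.4 and 11.6 FPKM in WT control TA and 19.2 and 20.5 FPKM under the knockout label. Its log2 fold change was 0.61 (SE 0.12, limma adjusted p = 0.129), while Smad3, which carries its signal, had the most negative log2 fold change of this list, -0.22.

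The median over 24 other FoxO target genes was 0.06 on the log2 scale. None was called, and 3 were higher at an unadjusted p of 0.05 or less, the antioxidant genes Cat and Sod2 and the thioredoxin inhibitor Txnip. Cat was 34.1, 44.7 and 36.0 FPKM in WT control TA and 63.1 and 66.9 FPKM under the knockout label, a log2 fold change of 0.77 (limma adjusted p = 0.110). The largest difference of the list was in Pdk4, the kinase that closes pyruvate dehydrogenase, at 0.99 (SE 0.46, limma adjusted p = 0.474). Pdk4 was 78.2, 255 and 185 FPKM in WT control TA, a wide spread, and 272 and 345 FPKM in the libraries labelled skmNrip1-/-. Genes of autophagy that FoxO factors activate gave small values of either sign, such as 0.09 for Map1lc3b, -0.03 for Gabarapl1 and -0.13 for Bnip3, with groups that overlapped. Ctsl, of the same list, was at -0.21 and lay lower without overlap. Of the 24 genes, 8 lay higher and 3 lower without overlap, patterns of 15.8% and 14.4% of all tested genes. The most negative value of the list was that of Sesn3, -0.30.

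Of 18 genes of the glucocorticoid receptor and its muscle targets, 14 had a log2 fold change below 0, where 6084 of all 12148 tested genes did, and the median was -0.20, the lowest of the 9 lists. This median was between -0.34 and -0.12 when 1 library was left out. With the libraries rescaled to TPM it was -0.50, while that of all tested genes was -0.29. None was called, and 3 were lower at an unadjusted p of 0.05 or less. Cebpb, a transcription factor of the acute phase and of muscle wasting, was 37.8, 33.3 and 47.1 FPKM in WT control TA and 24.1 and 20.3 FPKM under the knockout label. Its log2 fold change was -0.81 (SE 0.17, limma adjusted p = 0.144). Cebpd had a log2 fold change of -0.53 and Glul, the glutamine synthetase, one of -0.33. The classical targets Fkbp5, Per1 and Tsc22d3 had values of -0.40, -0.41 and -0.17 with groups that overlapped, and the receptor gene Nr3c1 itself was at 0.04. Angptl4 was at the upper end, with 0.52 (-0.0701 without WT control replicate 1), and its values overlapped between the groups.

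The lists around Cdkn1a, Ddit4 and Eif4ebp1 were flat in the median. Of 14 tested p53 target genes, none was called, and 10 were below 0 with a list median of -0.05. The pro-apoptotic genes Bbc3 (-0.78) and Bax (-0.39) were lower at an unadjusted p of 0.05 or less. Bbc3 was near the minimum for testing, at 0.674, 0.652 and 0.732 FPKM in WT control TA and 0.366 and 0.348 FPKM under the knockout label. The classical p53 targets Mdm2 (-0.05) and Ccng1 (-0.03) overlapped between the groups, and Plk2 was highest in the list, at 0.20. Of 17 tested ATF4 target genes, the median was 0.03, none was called, and Chac1 (-0.67) was the only one at an unadjusted p of 0.05 or less. Phgdh was the highest of that list at 0.53, with overlapping values, and stood at 0.0147 without replicate 1 labelled skmNrip1-/- and at 1.05 without replicate 2 so labelled. Of 20 genes of mTORC1 and cap-dependent translation, none was called, and Deptor and Larp1 had an unadjusted p of 0.05 or less. Deptor, an inhibitor of mTOR, was highest, at 6.23, 7.04 and 6.37 FPKM in WT control TA and 10.02 and 10.8 FPKM under the knockout label (log2 fold change 0.66, limma adjusted p = 0.0999). Larp1, a repressor of ribosomal protein mRNAs, was lowest, at -0.30, and the list median was -0.00.

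Over the 10 tested genes that respond to denervation the median was 0.27 on the log2 scale, with 7 above 0 and none called. With the libraries rescaled to TPM this median was -0.0180, while that of all tested genes was -0.29. Musk, the kinase that organizes the neuromuscular synapse, was 1.09, 1.49 and 1.76 FPKM in WT control TA and 3.49 and 3.30 FPKM in the libraries labelled skmNrip1-/- (2.30 times as high, limma adjusted p = 0.110). Dach2 had a log2 fold change of 1.35, and Ncam1 one of 1.75, the latter with overlapping values of 4.60, 1.33 and 1.90 FPKM in WT control TA and 4.35 and 14.2 FPKM under the knockout label. The value of Ncam1 was 0.91 without replicate 2 labelled skmNrip1-/- and 2.59 without replicate 1 so labelled. Myog, the factor that drives Trim63 and Fbxo32 in denervated muscle, was lowest at -0.43, with 1.66, 1.22 and 1.05 FPKM against 0.868 and 0.994 FPKM. The muscle acetylcholine receptor genes Chrna1 and Chrnb1 had overlapping values. A further receptor gene of the list, Chrnd, lay lower without overlap. It was 0.898, 0.879 and 0.933 FPKM in WT control TA and 0.855 and 0.622 FPKM under the knockout label (log2 fold change -0.27, limma adjusted p = 0.715).

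**Figure D4:**
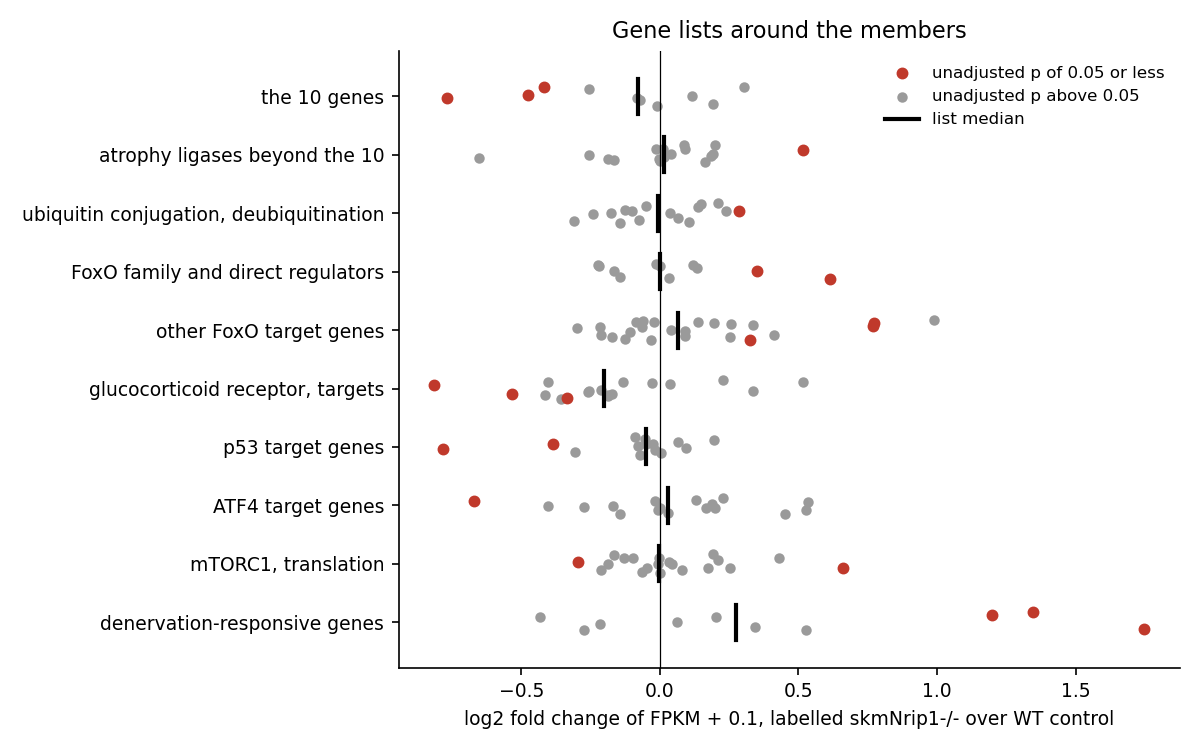
Log2 fold change on the FPKM + 0.1 scale (horizontal axis) of the 10 genes and of the tested genes of 9 lists around them (rows), 1 point a gene, red at an unadjusted p of 0.05 or less, with a bar at each median. The medians run from -0.20 for the glucocorticoid receptor list to 0.27 for the denervation list (-0.0180 with TPM), and no point passed the adjusted test.

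How the libraries are scaled to each other bears on all of these directions. In the values as deposited the median of ratios to a reference library was the same for each library, while the FPKM sums were larger under the knockout label. When each library was rescaled to the same sum (TPM), the median over the tested genes moved to -0.29 on the log2 scale, and calls went from 45 higher and 10 lower to 29 higher and 59 lower. Ddit4 was then called lower, at -0.77 (limma adjusted p = 0.0496), or 0.48 below the median gene as before, and it was the only one of the 10. Trim63 and Cdkn1a stood at -0.72 and -1.06, both with an adjusted p of 0.0531 from limma. The log2 fold changes of Fbxo32 and Fbxo30 took the opposite sign under this rescaling, at -0.18 and -0.10, and Fbxo21 stood at 0.01. The direction of the F-box ligases thus depends on the scaling, although all 3 stayed above the median of the tested genes (-0.29). The rescaling moved genes down by similar amounts, so members already below 0 had to stay below 0. These were Trim63, Cdkn1a, Ddit4 and Klf15, and also Foxo1 (-0.36), Foxo3 (-0.38) and Eif4ebp1 (-0.31). That they were lower under both scalings is therefore no separate result. The annotation places exons of other genes on the opposite strand within Fbxo32, Foxo1 and Cdkn1a, and the quantification is not stated to use strand.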

How the data were processed

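RNA-seq libraries were prepared by the authors with the NEBNext Ultra RNA kit and quantified with Salmon (v1.10.2) on the mm10 reference, with tximport for gene-level values. Per gene and library, the authors deposited FPKM. How the FPKM were computed is not given in the sources used here. The authors' own comparison fills 2 further columns (log2 fold changes and adjusted p-values), which were not used. Because FPKM are not counts, limma 3.58.1 in R 4.3.3 was run on log2(FPKM + 0.1) for all 5 libraries with an intensity trend and without covariates. Genes averaging 0.5 FPKM or more were tested (12148), and p-values were adjusted over them by Benjamini-Hochberg. Fold changes on this scale understate changes of low genes. Genes were called at adjusted p-values up to 0.05 where the fold change also reached 1.2.

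The value of 1 fragment was read from 1-transcript genes over 1000 bases, as FPKM times length less 250 bases. Of genes with up to 5 fragments, 81.2% to 92.7% lay within 0.15 of a whole number in each library. The fragment numbers given for genes are estimates from this step, since library totals were not used here. Positions and transcript lengths come from GENCODE M21 (GRCm38), which held 16996 of the 17015 gene IDs, and promoters from RefSeq (GRCm38.p6). The listed gene Skp1 was matched as Skp1a, and Fgf21 had no match. The steps were tested on simulated data. Python 3.11.15, pandas 2.3.3, numpy 2.4.6, scipy 1.17.1 and matplotlib 3.10.9 were used.

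The members, gene lists and tests were chosen with earlier results of these data known. Named are the members, Nrip1, the members' relatives by name, the genes with the highest and lowest log2 fold change of each list (1 is not reported here), and the 3 genes most like Fbxo32 and Trim63. All other genes were named after their values were seen. The alternatives changed the pseudocount (1, 0.01), the FPKM minimum (none, 1), the scaling (TPM, median of ratios), the eBayes step (no trend, robust), the design (replicate block, each library left out) and the thresholds (any fold change, adjusted p of 0.01).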

Additional observations from a re-analysis of the deposited data

How the results depend on the processing

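Over all tested genes, 45 were called higher and 10 lower. Rescaling to TPM gave 29 and 59, eBayes without the trend 22 and 3, and an adjusted p of 0.01 or less 14 and 3. Leaving out 1 library at a time gave 6 to 55 higher and 3 to 16 lower, with 27 and 3 without WT control replicate 1, 55 and 16 without replicate 2, 19 and 3 without replicate 3, and 8 and 8 or 6 and 3 without replicate 1 or 2 labelled skmNrip1-/-. Nrip1 lost its call without WT control replicate 3 (limma adjusted p = 0.114), without replicate 1 (0.189) or 2 (0.143) labelled skmNrip1-/-, without the trend (0.0769) and with the replicate block (0.128). The replicate block gave 18 and 4. The groups share the replicate numbers 1 and 2, nothing in the labels ties same-numbered libraries, and their deviations from the group means correlated at 0.0647 and 0.0952 over genes. Among the 10 genes, 0 were called higher under any alternative, and 0 lower except with TPM, where 1 was (Ddit4, at -0.77). With TPM the signs of Fbxo32 (-0.18) and Fbxo30 (-0.10) reversed, and also those of Trim55 (-0.21), Fbxo25 (-0.20), Fbxo40 (-0.12), Ddit4l (-0.13), Plk2 (-0.10), Rnf122 (-0.18), Slc30a4 (-0.17) and Kif3b (-0.14). With the replicate block, which gives WT control replicate 3 a term of its own, Foxo3 was at 0.0218 and Ddit4l at -0.0301. Leaving out libraries took the log2 fold change of Foxo1 from -0.37 to 0.22 (above 0 without replicate 2 labelled skmNrip1-/-), of Foxo3 from -0.19 to 0.0218 (above 0 without WT control replicate 3), of Eif4ebp1 from -0.0576 to 0.0763 (above 0 without WT control replicate 1 or replicate 2 labelled skmNrip1-/-), of Ddit4l from -0.0301 (without WT control replicate 3) to 0.41 and of Angptl4 from -0.0701 (without WT control replicate 1) to 0.90. Cdkn1a stayed between -0.99 and -0.54, Trim63 between -0.45 and -0.39, Ddit4 between -0.58 and -0.34 and Klf15 between -0.33 and -0.16. With TPM the medians of the lists moved with that of all tested genes (-0.29), and the denervation list went from 0.27 to -0.0180. Ncam1 ranged from 0.91 to 2.59 and Phgdh from 0.0147 to 1.05 when a library was left out. Of the genes in the lists, 0 were called, and 0 to 2 when a library was left out, the 2 being Cat (0.89) and Dach2 (1.83) without WT control replicate 2. Where 1 library labelled skmNrip1-/- was left out, the remaining one was assumed to vary like the WT control libraries. The cause of these shifts was not tested. No group held 4 libraries, so single libraries were not screened as outliers.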
